A study of Arabidopsis thaliana with 18 samples.

Results

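The mitogen-activated protein kinases (MAP kinases) of groups A, B and C are described here across 6 groups of Arabidopsis thaliana seed libraries. The 10 members were taken by locus, out of 33602 transcript models counted: MPK3 (AT3G45640) and MPK6 (AT2G43790) of group A, MPK4 (AT4G01370), MPK5 (AT4G11330), MPK11 (AT1G01560), MPK12 (AT2G46070) and MPK13 (AT1G07880) of group B, and MPK1 (AT1G10210), MPK2 (AT1G59580) and MPK7 (AT2G18170) of group C. All 10 had a row in every file, and 7 passed the filter on low counts. MPK5, MPK11 and MPK13 did not pass it. MPK10 of group A and MPK14 of group C are not members and are given by level alone.

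Polyadenylated RNA was sequenced from seeds of an mpk8 line, a line labelled tcp14 and the wild type, either imbibed for 24 h or dry. Each of the 6 groups has 3 libraries. The series calls the change in both lines a gene knock out, and neither the alleles nor the ecotype are given in the sources used here. Plants grew in soil at 21 °C. The imbibed seeds, called dormant, lay on wet filter paper in darkness at 25 °C, and dry seeds had no treatment. The replicates are called biological without any word on separate plants or seed lots, so p-values measure the spread between these libraries, which may be in part technical.

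A MAP kinase is the last step of a cascade in which a MAP kinase kinase kinase activates a MAP kinase kinase (MKK), which in turn phosphorylates the threonine and the tyrosine of the kinase's activation loop. Plant groups A, B and C carry Thr-Glu-Tyr at this place, while group D, to which MPK8 belongs, carries Thr-Asp-Tyr. MPK3 and MPK6 act in defence, stomatal patterning and ovule development, MPK4 in immunity and cytokinesis, MPK12 in guard cells, and MPK1, MPK2 and MPK7 downstream of MKK3, a branch tied to abscisic acid (ABA), the hormone that holds seeds dormant. These enzymes are switched on by phosphorylation, so a transcript level is not a measure of kinase activity.

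The activation loop is shown for the 8 members with more than 10 pairs in at least 1 group and for MPK8, since the 3 codons in capitals set the members apart from the kinase of the mutant line. Each line gives 45 coding bases, 5′ to 3′ on the gene's strand, from the RefSeq sequence of build TAIR10.1. The exon named is the one that holds these bases. Exons are numbered and counted over the whole transcript, any untranslated exon included.
MPK3, chr3:16757757-16757801, plus strand, coding exon 4 of 6: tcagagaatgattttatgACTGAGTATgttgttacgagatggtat
MPK6, chr2:18139880-18139924, plus strand, coding exon 4 of 6: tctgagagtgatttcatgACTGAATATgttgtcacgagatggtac
MPK4, chr4:568189-568233, plus strand, coding exon 4 of 6: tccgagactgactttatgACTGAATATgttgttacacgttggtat
MPK11, chr1:203408-203452, plus strand, coding exon 4 of 6: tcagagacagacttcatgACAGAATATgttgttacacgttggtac
MPK12, chr2:18946823-18946867, minus strand, coding exon 4 of 6: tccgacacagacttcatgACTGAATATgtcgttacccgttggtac
MPK1, chr1:3350216-3350260, plus strand, coding exon 2 of 2: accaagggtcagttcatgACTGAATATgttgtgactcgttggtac
MPK2, chr1:21885165-21885209, plus strand, coding exon 3 of 3: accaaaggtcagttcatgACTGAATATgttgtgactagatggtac
MPK7, chr2:7908688-7908732, minus strand, coding exon 3 of 3: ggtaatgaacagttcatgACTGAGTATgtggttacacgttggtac
MPK8, joined over an intron within chr1:6246340-6246486, minus strand: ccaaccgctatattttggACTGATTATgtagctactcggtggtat

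Over the whole coding sequence, MPK1 and MPK2 were the most alike of the members, with 85.6% identical bases and a longest identical run of 56 bases. MPK4 and MPK11 followed with 85.3% and a run of 31 bases, and MPK3 and MPK6 shared 69.4%. The authors dropped read pairs with several equally good hits, so pairs within such runs may be missing from close relatives. MPK3, MPK4, MPK5, MPK6 and MPK13 overlap another annotated gene in TAIR10.1. The library kit keeps strand, but how the counting used it is not stated beyond the orientation of the mates, so reads of overlapping genes may not be told apart.

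Libraries held 12170793 to 21233207 counted pairs, between 2159 and 4025 of them on the 10 members. Levels are CPM, counts brought to a common library size with TMM factors (edgeR). These factors parted the states, at 0.707 to 0.777 in dry libraries and 1.16 to 1.60 in imbibed ones, so each direction below was also computed with library totals, which put the median of all genes higher by 0.82 log2 units on imbibition of mpk8 seeds, 0.73 in seeds labelled tcp14 and 1.09 in wild type. MPK8 averaged 4.04 ± 0.502 CPM in dry mpk8 seeds and 11.4 ± 0.588 CPM in dry wild type (mean ± SD, n = 3 in each group throughout). TCP14, the transcription factor gene of the other line, stood at 44.1 ± 0.501 CPM in dry libraries labelled tcp14 and 6.86 ± 1.39 CPM in dry wild type, higher and not lower, so that line is named by its label throughout and directions drawn from it are those of the label. Seed reserve markers (7 of 7 genes tested) were abundant in every library, and of the endosperm markers (4 of 5 tested) EPR1 alone averaged 24800 to 30600 CPM in the dry groups, while MAN7 averaged 2.78 to 3.68 CPM and EXPA2 at most 0.101 CPM. Seed coat markers (3 of 5 tested) summed to at most 16.8 CPM. In such whole-seed RNA, fewer cells of a type and less RNA per cell cannot be told apart.

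On imbibition the shares of the members within the family changed. In wild type, MPK3, MPK6 and MPK12 fell and MPK1 and MPK2 rose under both scalings. MPK4 differed by 0.19 log2 units with TMM factors and by 1.28 with library totals, and made up 27.8 ± 0.36% of the family's summed level per kilobase in imbibed and 12.9 ± 0.185% in dry wild type. The 10 members summed to 119 ± 4.21 CPM in imbibed and 225 ± 8.57 CPM in dry wild type, a direction that depends on scaling, since with library totals the sums were 188 ± 6.68 and 167 ± 3.88 CPM. Per kilobase of transcript model, group A held 40.7 ± 0.134% of the summed level in imbibed wild type and 67.9 ± 1.27% in dry wild type. Group B held 28.6 ± 0.408% in imbibed seeds and 15.4 ± 0.297% in dry seeds, and group C held 30.8 ± 0.426% and 16.7 ± 1.01% in the same order of states. Shares within a library do not depend on how libraries are scaled.

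**Figure D1:**
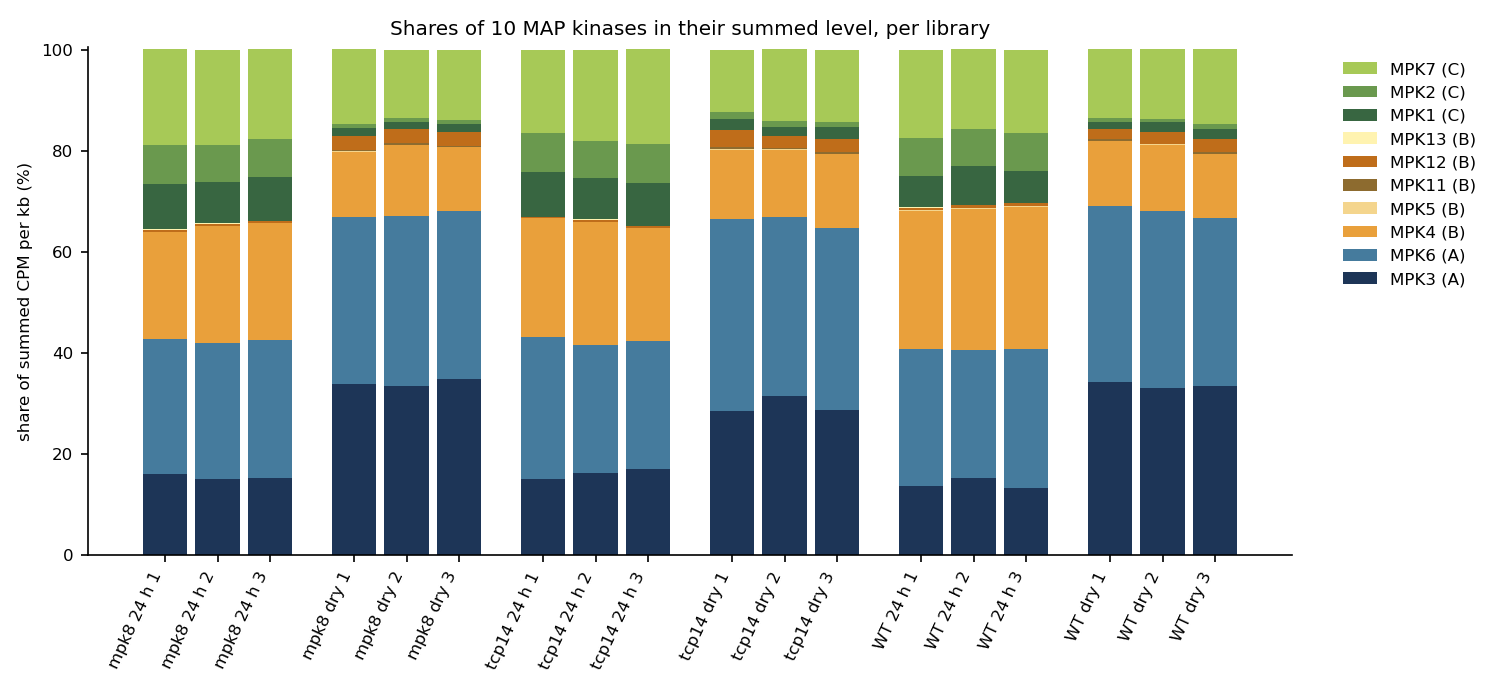
Share of each MAP kinase in the summed CPM per kilobase of the 10 members (y axis, percent), 1 stacked bar per library, for imbibed and dry libraries of each line. Group A (blue) takes 40.5% to 43.2% of the bar in the imbibed libraries and 64.7% to 69.0% in the dry ones, and groups B and C (orange and green) take more of the bar in imbibed libraries.

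The plot of shares shows the same split in each line. Group A held 42.4 ± 0.449% in imbibed and 67.4 ± 0.647% in dry mpk8 seeds, and 42.3 ± 0.796% and 66.1 ± 1.16% in imbibed and dry seeds labelled tcp14. In no line did the imbibed and dry libraries overlap for the share of group A, B or C. Between the lines, group B held 22.9 ± 1.16% in imbibed mpk8 seeds and 23.8 ± 1.01% in imbibed seeds labelled tcp14, against 28.6 ± 0.408% in imbibed wild type, and the libraries of either line did not overlap with wild type. MPK4 alone made up most of this, with 22.4 ± 1.18%, 23.4 ± 0.959% and 27.8 ± 0.36% in the same order. Group C held 34.7 ± 0.893% in imbibed mpk8 seeds and 33.9 ± 0.985% in imbibed seeds labelled tcp14, against 30.8 ± 0.426% in imbibed wild type, again without overlap.

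The order of the members per kilobase also changed. In dry wild type MPK6 (49.1 ± 0.402 CPM per kb) and MPK3 (48.1 ± 2.00) overlapped at the top, then came MPK7 (20.1 ± 1.63), MPK4 (18.4 ± 0.537), MPK12 (3.30 ± 0.515) and MPK1 (2.63 ± 0.633), of which MPK12 and MPK1 overlapped, and MPK2 (1.22 ± 0.243 CPM per kb). In imbibed wild type MPK4 (21.1 ± 0.598 CPM per kb) and MPK6 (20.1 ± 0.727) overlapped at the top, followed by MPK7 (12.5 ± 0.862), MPK3 (10.7 ± 1.09), the overlapping MPK2 (5.60 ± 0.177) and MPK1 (5.15 ± 0.672), and MPK12 (0.449 ± 0.130 CPM per kb). MPK6 led alone in imbibed mpk8 seeds (26.0 ± 0.248 against 21.6 ± 1.18 CPM per kb for MPK4). In dry seeds labelled tcp14 MPK6 (47.0 ± 0.442 CPM per kb) stood above MPK3 (38.1 ± 3.27) without overlap, the pair that overlapped in dry mpk8 and dry wild type.

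**Figure D2:**
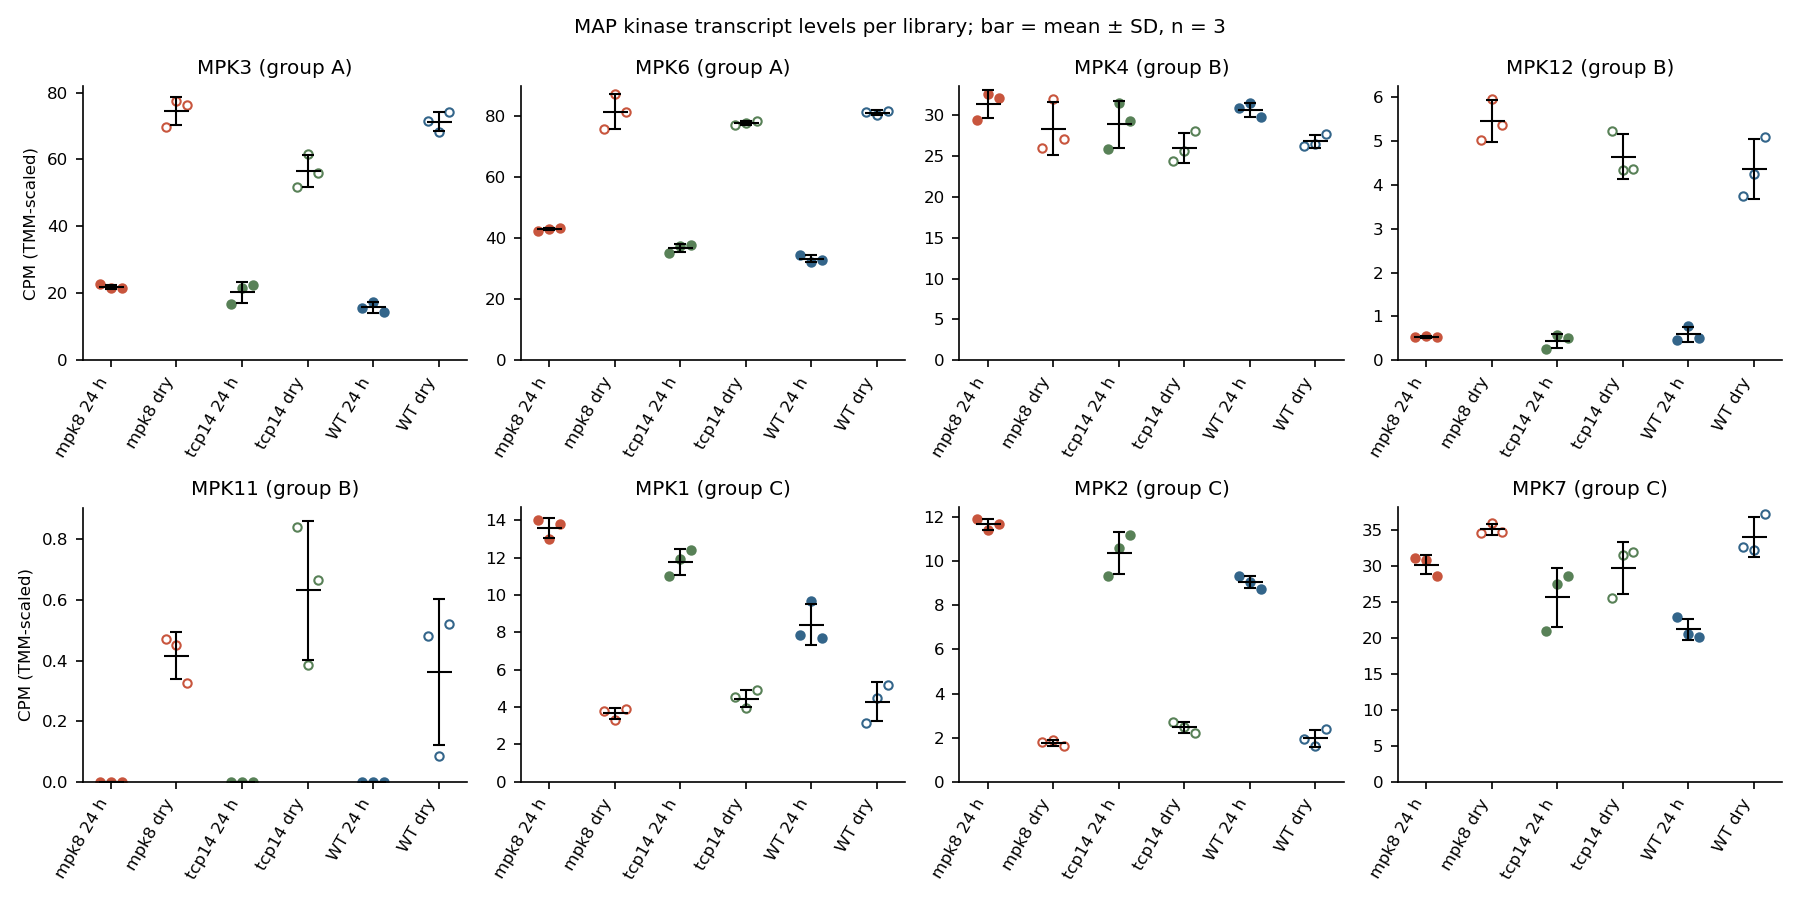
Level of 8 members in each library (y axis, TMM-scaled CPM on a linear axis from 0), with filled points for imbibed and open points for dry libraries of each line, and bars for the mean ± SD of 3 libraries. MPK3, MPK6, MPK12 and MPK11 are lower in imbibed than in dry libraries of each line, and MPK1 and MPK2 are higher.

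Group A holds the stress-responsive pair. MPK3 had 22.7, 21.5 and 21.7 CPM in imbibed mpk8 libraries, against 69.6, 77.5 and 76.3 CPM in dry ones. It had 16.8, 21.6 and 22.6 CPM in imbibed libraries labelled tcp14, against 51.9, 61.6 and 56.1 CPM in dry ones. Wild type had 15.6, 17.5 and 14.3 CPM in imbibed libraries, against 71.5, 68.3 and 74.2 CPM in dry ones. Every imbibed library lay below every dry one, in each line, as the plot of levels by library shows. MPK3 fell by 1.76 on the log2 scale in mpk8 (SE 0.0870, adjusted p = 5.66e-15 by edgeR's quasi-likelihood test with Benjamini-Hochberg adjustment, used for all adjusted p-values here), by 1.48 in seeds labelled tcp14 (SE 0.0896, adjusted p = 3.0e-13) and by 2.18 in wild type (SE 0.0910, adjusted p = 1.55e-16). With library totals it still fell, with log2 changes of -0.94, -0.76 and -1.09 in the same order.

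MPK6, in mpk8 seeds, was at 42.5, 43.0 and 43.3 CPM after imbibition, against 75.9, 87.1 and 81.4 CPM in the dry state. Imbibed libraries labelled tcp14 had 35.1, 37.5 and 37.7 CPM of MPK6, against 77.0, 77.8 and 78.4 CPM in dry ones. Imbibed wild-type libraries had 34.6, 32.3 and 33.0 CPM, against 81.4, 80.4 and 81.7 CPM in dry ones. Imbibed and dry libraries again did not overlap in any line under TMM scaling. With library totals those of mpk8 did, at 53.3, 53.7 and 54.6 CPM imbibed and 53.8, 61.5 and 58.1 CPM dry. With TMM factors the log2 change was -0.92 in mpk8 (SE 0.0531, adjusted p = 1.01e-13), -1.08 in seeds labelled tcp14 (SE 0.0542, adjusted p = 7.62e-15) and -1.28 in wild type (SE 0.0546, adjusted p = 2.23e-16). With library totals these values were -0.10 (adjusted p = 0.103), -0.36 (adjusted p = 7.9e-06) and -0.20 (adjusted p = 0.00402), so the fall in mpk8 was called under TMM scaling alone.

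The ratio of MPK3 to MPK6, per length and within a library, needs no scaling. It was 0.571 in imbibed against 1.02 in dry mpk8 seeds, 0.612 against 0.809 in seeds labelled tcp14, and 0.528 against 0.979 in wild type (geometric means of 3 libraries). MPK3 thus lost more than its relative in each line, without overlap of imbibed and dry libraries.

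Group B holds MPK4, whose size of change on imbibition depended on the scaling, and the scarce members. MPK4 had 30.8, 31.4 and 29.7 CPM in imbibed wild type, against 26.2, 26.4 and 27.7 CPM in dry wild type. The groups did not overlap, but the log2 difference was small, at 0.19 (SE 0.0822, adjusted p = 0.0322), and the call was lost without replicate 1 or replicate 2 of either group (4 of 6 such fits, log2 0.17 to 0.19, adjusted p = 0.0624 to 0.0912). MPK4 differed by 0.14 in mpk8 (SE 0.0797, adjusted p = 0.0983) and by 0.15 in seeds labelled tcp14 (SE 0.0814, adjusted p = 0.0970), where the libraries overlapped. It was called in mpk8 without replicate 2 of the dry libraries (log2 0.24, adjusted p = 0.0116, range over the 6 such fits 0.08 to 0.24). In seeds labelled tcp14 it was called without replicate 1 of the imbibed libraries (0.23, adjusted p = 0.0135) or replicate 3 of the dry ones (0.21, adjusted p = 0.0425), with a range of 0.08 to 0.23. With library totals MPK4 was higher after imbibition by 0.97, 0.87 and 1.28 log2 units in mpk8, seeds labelled tcp14 and wild type. The ratio of MPK3 to MPK4 per length was 0.688 in imbibed and 2.58 in dry mpk8 seeds, 0.688 and 2.13 in seeds labelled tcp14, and 0.504 and 2.61 in wild type.

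MPK12 had 0.472, 0.792 and 0.519 CPM in imbibed wild type, against 3.75, 4.25 and 5.10 CPM in dry wild type. Its log2 change was -3.33 in mpk8 (SE 0.222, adjusted p = 1.72e-12), -3.40 in seeds labelled tcp14 (SE 0.242, adjusted p = 5.88e-12) and -2.90 in wild type (SE 0.232, adjusted p = 4.36e-11), the steepest fall among the 7 members tested. With library totals it was -2.51, -2.67 and -1.81 in the same order.

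MPK11, the close relative of MPK4, had no pair in any of the 9 imbibed libraries. Over the 3 dry libraries of a line it had 16 pairs in mpk8, 26 in seeds labelled tcp14 and 11 in wild type. Against a floor of 3 pairs over the imbibed group, and with the dry count taken as exact, it was at least 9.88-fold lower in imbibed mpk8 seeds, 13.7-fold lower in seeds labelled tcp14 and 8.23-fold lower in wild type, and at least 5.59-fold, 8.21-fold and 3.87-fold lower with library totals. These values bound the imbibed side alone and leave out the spread of the dry counts, which were 5, 1 and 5 pairs in the wild-type libraries. In a fit of all 25486 genes with at least 1 pair, the adjusted p for imbibition was 8.18e-06 in mpk8, 1.77e-07 in seeds labelled tcp14 and 6.32e-05 in wild type. MPK5 had 3 to 8 pairs in a group of 3 libraries and MPK13 0 to 2, too few to compare. MPK10, outside the members, also had 0 to 2 pairs per group.

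In group C, MPK1 and MPK2 rose under both scalings, while the direction of MPK7 depended on the scaling. MPK1 had 7.87, 9.66 and 7.68 CPM in imbibed wild type, against 3.17, 4.51 and 5.20 CPM in dry wild type, and the groups did not overlap. It rose by 1.89 log2 units in mpk8 (SE 0.136, adjusted p = 6.53e-12), 1.39 in seeds labelled tcp14 (SE 0.133, adjusted p = 1.36e-09) and 0.96 in wild type (SE 0.143, adjusted p = 1.47e-06). MPK2 had 9.32, 9.08 and 8.75 CPM in imbibed wild type, against 1.92, 1.62 and 2.39 CPM in dry wild type, likewise apart. Its log2 change was 2.71 in mpk8 (SE 0.134, adjusted p = 5.46e-15), 2.05 in seeds labelled tcp14 (SE 0.127, adjusted p = 4.53e-13) and 2.21 in wild type (SE 0.141, adjusted p = 6.19e-13), the largest increase among the 7 members tested in each line. Both genes also rose with library totals, by 2.05 to 2.71 log2 units for MPK1 and 2.78 to 3.53 for MPK2.

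MPK7 had 22.9, 20.6 and 20.2 CPM in imbibed wild type, against 32.7, 32.3 and 37.3 CPM in dry wild type. Its log2 change was -0.22 in mpk8 (SE 0.0943, adjusted p = 0.0383), -0.21 in seeds labelled tcp14 (SE 0.0978, adjusted p = 0.0548) and -0.68 in wild type (SE 0.0989, adjusted p = 1.12e-06), and it turned to 0.61, 0.51 and 0.41 with library totals. In seeds labelled tcp14 leaving out 1 library gave -0.31 to -0.07. It was called there without replicate 2 or replicate 3 of the imbibed libraries (-0.26 and -0.27, adjusted p = 0.031 and 0.0176) or replicate 1 of the dry ones (-0.31, adjusted p = 0.00826). The MPK7 call in mpk8 was lost without any of 5 of its 6 libraries, all but replicate 1 of the imbibed group (log2 -0.23 to -0.18, adjusted p = 0.0545 to 0.116). No direction is therefore given for MPK7 on its own. The ratio of MPK2 to MPK7 per length, which needs no scaling, was 0.405 in imbibed and 0.0529 in dry mpk8 seeds, 0.425 and 0.0878 in seeds labelled tcp14, and 0.447 and 0.0602 in wild type. MPK14, outside the members, averaged 1.13 ± 0.215 CPM in imbibed and 0.926 ± 0.536 CPM in dry wild type. It had 1.97, 1.68 and 2.32 CPM in imbibed mpk8 libraries, against 0.707, 1.13 and 0.814 CPM in dry ones. Imbibed libraries labelled tcp14 had 1.72, 3.40 and 2.16 CPM of MPK14, against 1.17, 1.06 and 0.89 CPM in dry ones. The imbibed libraries of both lines lay above those of imbibed wild type, at 1.30, 1.21 and 0.89 CPM.

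**Figure D3:**
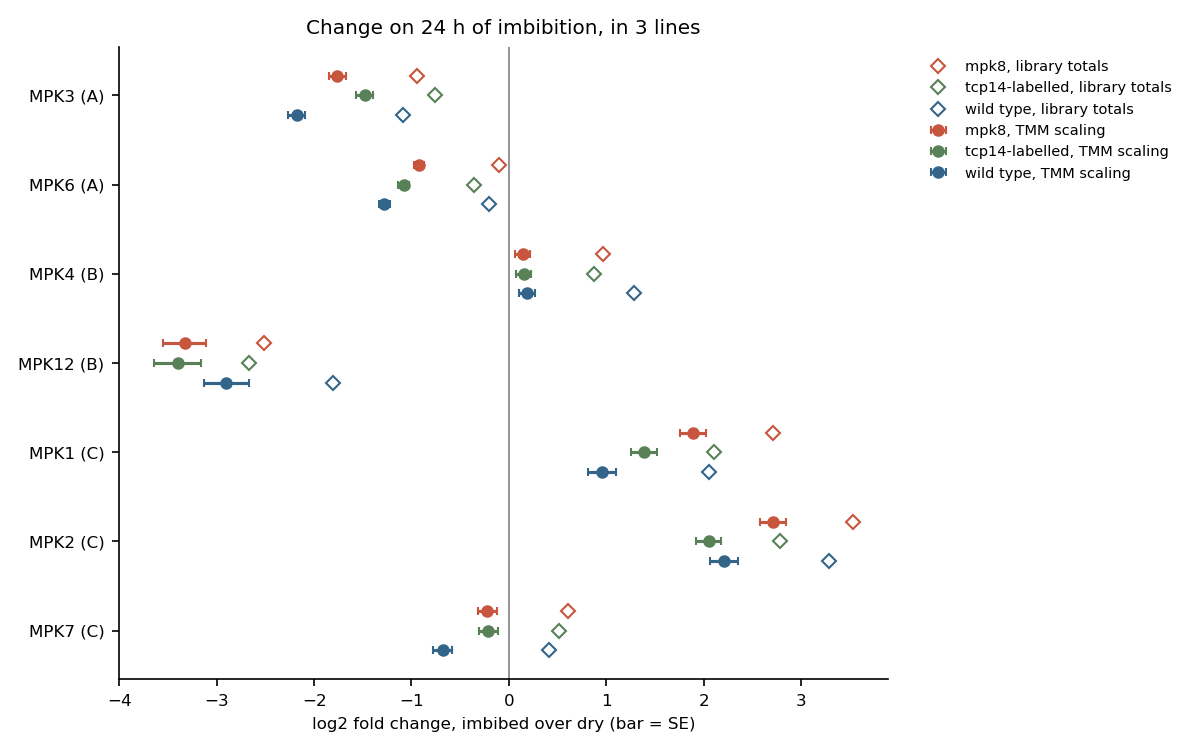
Log2 fold change of the 7 tested members on imbibition (x axis, imbibed over dry) in mpk8, tcp14-labelled and wild-type seeds, with filled points and SE bars for TMM scaling and open diamonds for library totals. MPK3, MPK6 and MPK12 lie below 0 and MPK1 and MPK2 above 0 under both scalings, MPK4 lies above 0 under both but nearer to it under TMM scaling, and MPK7 changes side.

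In wild type all 7 tested members were called on imbibition, 3 higher and 4 lower, beside 86.1% of all genes tested (46.0% higher and 40.1% lower). In mpk8 2 were higher, 4 lower and 1 not called, beside 83.1% of all genes called (44.4% higher and 38.7% lower). In seeds labelled tcp14 2 were higher, 3 lower and 2 not called, beside 83.1% (43.8% higher and 39.3% lower). These shares are near the background and are no result about the family. With library totals 4 members were higher and 3 lower in wild type, beside 72.1% and 18.5% of all genes. The members' median log2 change in wild type was -0.68, beside 0.14 for all genes, and 0.41, beside 1.23, with library totals. Markers moved with the same contrast: summed seed reserve markers were at 38700 to 47400 CPM in imbibed and 145000 to 156000 CPM in dry wild type, and 5 pollen markers summed to 0 in imbibed and 132 to 142 CPM in dry wild type. Their part in the members' values was not tested.

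The rest of the cascade was described by lists written from general knowledge, whose counts stand beside 46.0% of all genes higher and 40.1% lower on imbibition of wild type (median log2 change 0.14), and 72.1% and 18.5% with library totals (median 1.23). Of 10 MKK genes 7 were tested, and on imbibition of wild type 4 rose and 3 fell (median log2 change 0.31), all 7 being higher with library totals (median 1.40). MKK6, known from cytokinesis upstream of MPK4, averaged 3.88 ± 0.667 CPM in imbibed wild type and had 1 pair in the 3 dry libraries. MKK4, an activator of MPK3 and MPK6, rose by 0.85 (SE 0.128, adjusted p = 1.7e-06), and MKK1, which acts on MPK4, rose by 1.04 (SE 0.428, adjusted p = 0.0282) with 1.32 ± 0.281 CPM in imbibed and 0.629 ± 0.291 CPM in dry wild type. MKK3, upstream of group C, fell by 0.59 (SE 0.0922, adjusted p = 3.12e-06), but was higher by 0.50 with library totals.

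Of 21 MEKK-type MAP kinase kinase kinases 17 were tested, and 2 rose, 11 fell and 4 were not called on imbibition of wild type (median -0.38), against 10 higher and 6 lower with library totals (median 0.71). MAPKKK13 averaged 2.59 ± 0.458 CPM in imbibed and 102 ± 3.08 CPM in dry wild type, a log2 change of -5.28 (SE 0.123, adjusted p = 2.58e-21). MAPKKK14 fell by 3.16 (SE 0.148, adjusted p = 1.54e-15), and ANP2, of a family tied to cytokinesis, by 2.92 (SE 0.248, adjusted p = 1.28e-10). All 3 also fell with library totals, with log2 changes of -4.20, -2.07 and -1.83. MAPKKK18, an ABA-induced kinase of the MKK3 branch, had 1 pair over the imbibed wild-type libraries and 18 over the dry ones.

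Of 10 phosphatases of MAP kinases 9 were tested, and 1 rose, 6 fell and 2 were not called (median -1.29), against 3 higher and 5 lower with library totals (median -0.20). AP2C1, which acts on MPK4 and MPK6, fell by 1.68 (SE 0.119, adjusted p = 4.27e-12), IBR5, which acts on MPK12, by 1.47 (SE 0.0712, adjusted p = 2.72e-15), and the phosphatase genes AT1G67820 and AT1G07160 by 1.95 (SE 0.0728, adjusted p = 1.79e-17) and 2.50 (SE 0.396, adjusted p = 3.61e-06). All 4 also fell with library totals.

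All 15 listed substrates were tested, and 3 rose, 11 fell and 1 was not called (median -1.80, beside 0.14 for all genes, of which 46.0% were called higher and 40.1% lower). With library totals 6 were higher and 8 lower (median -0.71, beside 1.23), with 72.1% and 18.5% of all genes. ACS6, an ACC synthase stabilised by MPK6, averaged 0.396 ± 0.0258 CPM in imbibed and 10.4 ± 0.782 CPM in dry wild type, a log2 change of -4.70 (SE 0.190, adjusted p = 8.13e-17). ERF6, an ethylene response factor and a target of MPK3 and MPK6, fell by 3.42 (SE 0.286, adjusted p = 9.45e-11). MAP65-1, a microtubule bundling protein of dividing cells, rose by 4.23 (SE 0.130, adjusted p = 4.46e-19). SPCH, the stomatal lineage factor, averaged 1.74 ± 0.371 CPM in imbibed wild type and had no pair in any dry library of the 3 lines. ACS6, ERF6 and MAP65-1 kept these directions with library totals.

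Before imbibition, 1 call was made among the members in the 2 lines. In dry mpk8 seeds none of the 7 tested members was called, beside 2.62% of all genes (1.53% higher and 1.09% lower), with log2 differences of -0.23 to 0.33 and adjusted p-values of 0.381 to 0.993. Without adjustment none had a p under 0.05 by edgeR, and DESeq2 called none of the 5 for which it gave an adjusted p. A p that misses the threshold does not show that levels were equal. Among the cascade lists in dry mpk8 seeds, 1 gene was called, NIA2, a nitrate reductase phosphorylated by MPK6, at 3.21 ± 0.165 CPM in dry mpk8 and 6.41 ± 0.323 CPM in dry wild type (log2 -0.99, SE 0.223, adjusted p = 0.0196). Pollen markers were lower there too, 3 of 5 being called, with sums of 81.2 to 83.6 CPM in dry mpk8 and 132 to 142 CPM in dry wild type, and their part was not tested.

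In dry seeds labelled tcp14, MPK3 was lower. Its libraries held 51.9, 61.6 and 56.1 CPM, against 71.5, 68.3 and 74.2 CPM in dry wild type, without overlap. The log2 difference was -0.34 (SE 0.0852, adjusted p = 0.0103) and -0.31 with library totals (adjusted p = 0.0186). Without replicate 1 of the dry libraries labelled tcp14 it was -0.28 and no longer called (adjusted p = 0.0722). The log2 ratio of MPK3 to MPK6 was -0.41, -0.18 and -0.33 in these libraries against -0.03, -0.08 and 0.02 in dry wild type. MPK3 was the single member called of 7, beside 11.4% of all genes (6.12% higher and 5.27% lower), and the other 6 had adjusted p-values of 0.229 to 0.872.

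Of the cascade in dry seeds labelled tcp14, 1 of 7 tested MKK genes was called higher and 0 lower. The counts were 2 and 0 of 17 MAP kinase kinase kinases, 0 and 2 of 9 phosphatases, and 3 and 2 of 15 substrates. Of all genes, 6.12% were called higher and 5.27% lower. MKK9 was higher by 0.44 (SE 0.134, adjusted p = 0.0322), MAPKKK19 by 0.82 (SE 0.152, adjusted p = 0.000657) and MAPKKK13 by 0.33 (SE 0.0869, adjusted p = 0.0142). The phosphatase genes PHS1 and MKP1 were lower, at log2 -0.42 (SE 0.0859, adjusted p = 0.00159) and -0.21 (SE 0.0520, adjusted p = 0.00877). Of the 3 substrates called higher, ERF6 differed by 0.93 (SE 0.200, adjusted p = 0.00299) and WRKY33, a defence factor phosphorylated by MPK3 and MPK6, by 0.52 (SE 0.0971, adjusted p = 0.000745). These 7 genes kept direction and call with library totals. Summed pollen markers ran from 138 to 196 CPM in these libraries and from 132 to 142 CPM in dry wild type, with 1 of 5 called higher, and their part was not tested.

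After imbibition 5 members were called higher in mpk8 and 4 in seeds labelled tcp14 than in wild type under TMM scaling, and of these MPK1 in mpk8 alone was also called higher with library totals, while MPK6 in seeds labelled tcp14 was called lower. Both comparisons use the same wild-type libraries, so they are not independent. In mpk8 5 of 7 tested members were called higher and none lower, beside 64.6% of all genes called (33.8% higher and 30.8% lower). With library totals, which shift the median of all genes by -0.32 (-0.33 for seeds labelled tcp14), 1 was higher and 1 lower, beside 12.3% and 49.9% of all genes. In seeds labelled tcp14 4 were higher and none lower, beside 55.2% of all genes called (27.3% higher and 28.0% lower), and with library totals none was higher and 2 were lower, beside 7.83% and 54.2% of all genes.

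Among the tested members, MPK1 had the highest log2 difference from wild type in both lines. It had 14.0, 13.0 and 13.8 CPM in imbibed mpk8 libraries and 11.0, 11.9 and 12.4 CPM in those labelled tcp14. Imbibed wild type had 7.87, 9.66 and 7.68 CPM, and neither line overlapped it under TMM scaling. With library totals the libraries labelled tcp14 (14.6, 15.2 and 14.4 CPM) overlapped wild type (12.6, 15.0 and 12.2 CPM). Under TMM scaling MPK1 was higher by 0.71 in mpk8 (SE 0.110, adjusted p = 6.93e-06) and by 0.49 in seeds labelled tcp14 (SE 0.113, adjusted p = 0.000784). With library totals the values were 0.37 (adjusted p = 0.00524) and 0.16 (adjusted p = 0.228), so MPK1 in mpk8 was the 1 member called higher under both scalings.

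MPK7, in the same clade, had 31.1, 30.9 and 28.7 CPM in imbibed mpk8 and 21.0, 27.5 and 28.6 CPM in imbibed libraries labelled tcp14, against 22.9, 20.6 and 20.2 CPM in imbibed wild type. Under TMM scaling the mpk8 libraries lay apart from wild type, while those labelled tcp14 overlapped it. With library totals the lowest mpk8 library (36.2 CPM) lay below the highest of wild type (36.7 CPM). The log2 difference was 0.51 in mpk8 (SE 0.0934, adjusted p = 5.34e-05) and 0.27 in seeds labelled tcp14 (SE 0.0953, adjusted p = 0.0201), against 0.17 (adjusted p = 0.115) and -0.07 (adjusted p = 0.538) with library totals. The call in seeds labelled tcp14 was lost without replicate 2 or replicate 3 of either group (log2 0.18 to 0.25, adjusted p = 0.0514 to 0.137). MPK2 was higher by 0.37 in mpk8 (SE 0.0946, adjusted p = 0.00169), against 0.03 with library totals, and differed by 0.19 in seeds labelled tcp14 (adjusted p = 0.0973), against -0.14 with library totals. In seeds labelled tcp14 MPK2 was called without replicate 1 of their imbibed libraries (0.27, adjusted p = 0.0337), with a range of 0.13 to 0.27.

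In group A, MPK3 was higher by 0.48 in imbibed mpk8 seeds (SE 0.0924, adjusted p = 7.95e-05) and by 0.36 in those labelled tcp14 (SE 0.0942, adjusted p = 0.00227), of which the lowest library (16.8 CPM) lay within the range of imbibed wild type. MPK6 was higher by 0.36 in mpk8 (SE 0.0538, adjusted p = 3.14e-06) and by 0.14 in seeds labelled tcp14 (SE 0.0546, adjusted p = 0.0333). In seeds labelled tcp14 the call was lost without replicate 2 or replicate 3 of either group, at log2 0.12 to 0.13 (adjusted p = 0.0859 to 0.115). With library totals MPK3 differed by 0.15 and 0.03 and MPK6 by 0.03 in mpk8, none of these called, while MPK6 was lower, at log2 -0.19 in seeds labelled tcp14 (adjusted p = 0.00743). In group B, MPK4 differed by 0.03 in mpk8 (adjusted p = 0.724) and -0.09 in seeds labelled tcp14 (adjusted p = 0.340), and with library totals by -0.30 (adjusted p = 0.00241) and -0.42 (adjusted p = 0.000114). MPK12 differed by -0.11 and -0.40 (adjusted p = 0.805 and 0.342).

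**Figure D4:**
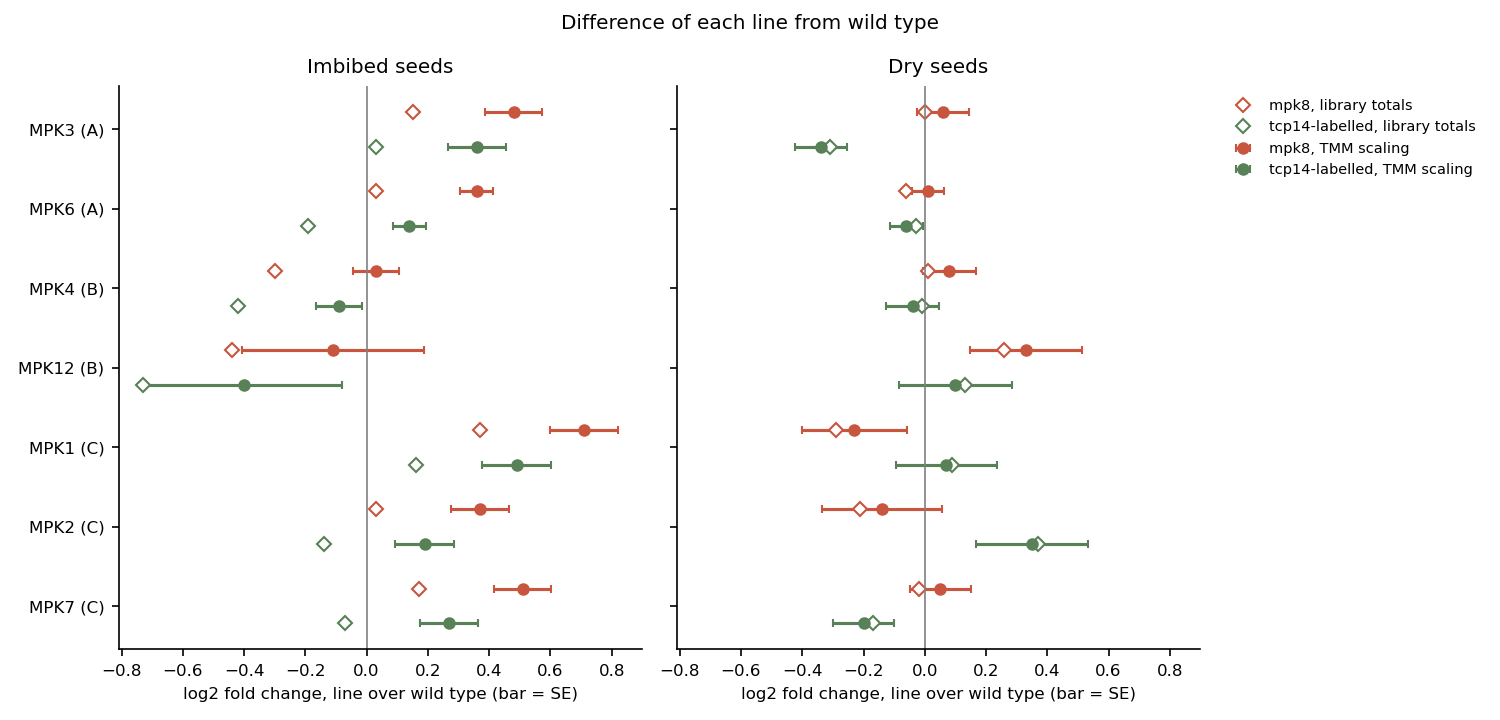
Log2 difference of each line from wild type (x axis) for the 7 tested members, in imbibed seeds (left panel) and dry seeds (right panel), with filled points and SE bars for TMM scaling and open diamonds for library totals. In imbibed seeds the diamonds lie to the left of the points, so MPK6, MPK2 and MPK7 in tcp14-labelled seeds and MPK4 in mpk8 seeds change side, and in dry seeds both lie close together, with MPK6 and MPK7 of mpk8 seeds changing side near 0.

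In the plot of differences between lines, MPK1 is highest and MPK4 and MPK12 are lowest in imbibed seeds of each line. Library totals move all members of a comparison by nearly the same amount, so this order is no separate check. Seed reserve markers were also higher in imbibed lines, with summed levels of 97400 to 99300 CPM in mpk8 and 96900 to 140000 CPM in seeds labelled tcp14, against 38700 to 47400 CPM in wild type, 7 of 7 markers being called higher under both scalings. Of 4 endosperm markers tested, 1 was higher and 2 lower in each line (medians -0.35 and -0.38). EPR1, nearly all of their sum of 6300 to 7460, 4770 to 6730 and 2770 to 3580 CPM in the same order, averaged 6680, 5480 and 3070 CPM. EXPA2 went the other way, at 17.1 and 63.4 against 152 CPM, as did MAN7, at 42.0 and 44.3 against 65.5 CPM, and ZOU was at 0 in seeds labelled tcp14 and in wild type. Seed coat markers ran lower in the lines, at 7.52 to 9.09 and 7.91 to 9.24 CPM against 13.5 to 16.8 CPM in wild type. The part of these shifts in the members' values was not tested.

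The interaction of line and imbibition gave 4 members whose change differed between mpk8 and wild type, all 4 positive, beside 39.0% of all genes (24.0% positive and 15.0% negative). These were MPK1 (0.93, SE 0.204, adjusted p = 0.000899), MPK7 (0.46, SE 0.136, adjusted p = 0.00981), MPK3 (0.42, SE 0.125, adjusted p = 0.00976) and MPK6 (0.36, SE 0.0758, adjusted p = 0.000618). With library totals the calls were MPK1 (0.66, adjusted p = 0.0119) and MPK4, which was negative (-0.32, adjusted p = 0.0469), beside 9.08% of all genes positive and 25.3% negative. For the tcp14 label 3 of 7 were called and positive, beside 33.2% of all genes (19.2% positive and 13.9% negative), namely MPK3 (0.70, SE 0.127, adjusted p = 0.000173), MPK7 (0.47, SE 0.139, adjusted p = 0.0113) and MPK6 (0.20, SE 0.0765, adjusted p = 0.0445). The call of MPK6 was lost without any of 10 of the 12 libraries, all but replicate 1 of the imbibed groups (log2 0.18 to 0.22, adjusted p = 0.0554 to 0.105). MPK1 was not called for the tcp14 label (0.43, SE 0.200, adjusted p = 0.110, and 0.06 with library totals). It was called without replicate 2 of imbibed wild type (0.53, adjusted p = 0.042) or replicate 1 of dry wild type (0.60, adjusted p = 0.0213), with a range of 0.29 to 0.60. With library totals MPK3 remained positive (0.33, adjusted p = 0.0352), and MPK4 was negative (-0.41, adjusted p = 0.0103), beside 4.91% of all genes positive and 36.0% negative. MPK3 thus fell less on imbibition in seeds labelled tcp14 than in wild type under both scalings. Its level in these seeds was already lower than wild type when dry, at log2 -0.34 and -0.31 with library totals. After imbibition it differed from wild type by 0.36, but by 0.03 with library totals (adjusted p = 0.824).

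In imbibed seeds the counts over the cascade lists also moved with the scaling. The shares of all genes called were 33.8% higher and 30.8% lower in mpk8 and 27.3% and 28.0% in seeds labelled tcp14 under TMM scaling, against 12.3% and 49.9%, and 7.83% and 54.2%, with library totals. Of 7 MKK genes, 1 was higher and 3 lower than wild type in mpk8 and likewise 1 and 3 in seeds labelled tcp14 (medians -0.13 and -0.04), against 0 and 4, and 1 and 4, with library totals. MKK6 averaged 1.02 ± 0.366 CPM in mpk8 and 1.22 ± 0.236 CPM in seeds labelled tcp14, against 3.88 ± 0.667 CPM in wild type (log2 -1.94, SE 0.251, adjusted p = 4.69e-07, and -1.67, SE 0.249, adjusted p = 6.48e-06). MKK4 was lower in mpk8, at log2 -0.64 (SE 0.111, adjusted p = 2.44e-05), and MKK9 was higher in seeds labelled tcp14 by 0.60 (SE 0.107, adjusted p = 5.34e-05). Of 17 MAP kinase kinase kinases, 4 were higher and 4 lower in mpk8, and 6 and 4 in seeds labelled tcp14 (medians 0.04 and 0.02). With library totals these counts were 0 and 10, and 0 and 8 (medians -0.29 and -0.32). MAPKKK19 averaged 1.78 ± 0.460 and 5.37 ± 1.41 CPM in mpk8 and in seeds labelled tcp14, against 12.2 ± 1.19 CPM in wild type (log2 -2.79, SE 0.166, and -1.18, SE 0.142). ANP3 was lower, at log2 -2.29 (SE 0.262) and -1.28 (SE 0.236). These directions held with library totals.

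Of 9 phosphatases, 4 were higher and 3 lower in imbibed mpk8 seeds and 2 and 2 in those labelled tcp14 (medians 0.17 and 0.08). With library totals these counts were 1 and 4, and 1 and 6 (medians -0.17 and -0.25), beside the shares of all genes given above. DsPTP1, a dual-specificity phosphatase, was lower, at log2 -0.80 in mpk8 (SE 0.246, adjusted p = 0.00692) and -0.63 in seeds labelled tcp14 (SE 0.247, adjusted p = 0.0353), and PTP1 at -0.59 in seeds labelled tcp14 (SE 0.102, adjusted p = 4.14e-05). AT1G07160 was lower, at log2 -2.04 in mpk8 (SE 0.661, adjusted p = 0.0102), from 3 pairs over the mpk8 libraries and 14 over wild type. Of 15 substrates, 10 were higher and 2 lower in mpk8 and 9 and 2 in seeds labelled tcp14 (medians 0.43 and 0.38, beside 0.04 and 0.00 for all genes), against 5 and 4, and 4 and 5, with library totals (medians 0.10 and 0.04, beside -0.28 and -0.33 for all genes). The shares of all genes called were again 33.8% higher and 30.8% lower in mpk8 and 27.3% and 28.0% in seeds labelled tcp14. NIA2 was lower, at log2 -1.74 (SE 0.308, adjusted p = 3.35e-05) in mpk8 and -1.56 (SE 0.309, adjusted p = 0.000187) in seeds labelled tcp14. ACS2, an ACC synthase phosphorylated by MPK3 and MPK6, was higher in mpk8 by 0.91 (SE 0.0996, adjusted p = 4.18e-08), and SPCH was lower in seeds labelled tcp14, at log2 -1.25 (SE 0.328, adjusted p = 0.00392). NIA2, ACS2, SPCH and the phosphatases named kept these directions with library totals.

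The genes whose log2 CPM ran most like MPK2 over the 18 libraries, among 7806 tested genes with a symbol, were PDE345 (Pearson r = 0.9965), DPE1 (0.9961) and ERL2 (0.9957). Those most like MPK12 were MGT2 (0.9901), LPP3 (0.9900) and PAO1 (0.9898). The split between dry and imbibed libraries is common to most genes, with 83.1% to 86.1% of those tested called on imbibition. Of the 7806 genes, 1713 had an r over 0.9 with MPK2 and 2006 with MPK12, so these values describe that split.

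Promoters were searched for 4 motifs on both strands, from 250 bases before to 50 after the annotated start, among 27443 genes of TAIR10.1. The class I TCP site GGNCCCAC was in none of the 10 members' windows and in 1.32% of all. The shorter site II element GGCCCA, which lies within the TCP site where N is G, was in those of MPK5 and MPK13 and in 15.5% of all. A W-box (TTGACC or TTGACT) was in 5 members, MPK4, MPK5, MPK6, MPK11 and MPK13, and in 32.4% of all promoters. An ABA response element (ACGTGG or ACGTGT) was in MPK5 and in 18.9% of all. A match describes letters in the window and not binding.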

How the data were processed

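The files give counts of read pairs per transcript model, deposited by the authors as raw counts, with 1 model per locus. Per the labels, libraries were stranded TruSeq from polyadenylated RNA, and per the submitters' processing notes TopHat2 and Bowtie2 placed the reads on TAIR10 (versions not given). Per the file headers, the authors kept proper pairs (both mates on 1 reference, strands reversed, any insert size) and dropped lone mates as well as pairs that mapped equally well in several places. Symbols came from the TAIR10.1 annotation, which held 32835 of 33602 loci (97.7%) and all 10 members.

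One quasi-likelihood fit covered all 18 libraries (edgeR 4.0.16 and limma 3.58.1 under R 4.3.3), with TMM factors, 1 mean per group and the 18061 genes that passed filterByExpr over the 6 groups (minimum count 10). p-values were adjusted by Benjamini-Hochberg over all genes of a comparison, and a call is an adjusted p under 0.05 with no minimum fold. SE were the absolute log2 fold change over the square root of the F statistic. Comparisons were imbibition in each line, each line against wild type in each state, and the interactions, 9 in all. Levels between genes were compared as CPM per kilobase of model length, and ratios and shares were taken within a library. Likeness was the Pearson r of log2 CPM (prior count 2). The fit was tested on simulated data with known changes between a line and wild type. Those data started from the same levels in dry and imbibed libraries, so they do not check the scaling between states or the interactions.

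Members and lists (written from general knowledge) were chosen with earlier results of these data known. Named are all members, MPK8 and TCP14, MPK10 and MPK14 by level, from each of 4 lists up to 4 called genes with the largest change on imbibition of wild type and up to 2 in each comparison of a line with wild type, without overlap of libraries between the groups, and the 3 genes most like each of the members with the largest rise and fall. Genes with 0 or 1 pair in a group are given by level. A listed substrate, TZF9, was left out because the annotation gives its locus another name. Replicate numbers were checked for pairing, and the correlation of deviations between same-numbered libraries ran from -0.22 to 0.38 over 7 comparisons, with every pair over 0.1 in none, so libraries were not treated as paired. No 2 replicates agreed within sampling noise. Alternatives were leaving out each library, a replicate block, a fit of the compared groups alone, a 2-fold minimum, all genes with at least 1 pair, scaling by library totals or by DESeq2 size factors, and the DESeq2 1.42.0 Wald test.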

Additional observations from a re-analysis of the deposited data

Results flagged for a closer look

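Interaction terms of edgeR's quasi-likelihood test, which test the difference itself between the imbibition responses of a line and of wild type, singled out 7 values. In mpk8 they were 0.93 for MPK1, 0.46 for MPK7, 0.42 for MPK3 and 0.36 for MPK6 on the log2 scale. In seeds labelled tcp14 they were 0.70 for MPK3, 0.47 for MPK7 and 0.20 for MPK6. All 7 were positive, beside 24.0% (mpk8) and 19.2% (tcp14 label) of all genes called positive and 15.0% and 13.9% called negative. Both sets use the same wild-type libraries. The MPK6 call for the tcp14 label was lost in 10 of the fits that left out 1 library. With library totals MPK1 in mpk8 (0.66) and MPK3 in seeds labelled tcp14 (0.33) were still called, and MPK6 in seeds labelled tcp14 was at -0.16. MPK4 was then called negative in mpk8 (-0.32) and in seeds labelled tcp14 (-0.41). No cause was tested.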

How the results depend on the processing

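Of 63 log2 values (7 members in 9 comparisons), direction and call were the same for 61 with DESeq2 size factors in edgeR, 59 with all genes with at least 1 pair, 58 with the compared groups alone, 56 of 61 with the DESeq2 Wald test, which gave no adjusted p for MPK2 and MPK12 in dry mpk8, and 36 with library totals. The direction turned under library totals for MPK7 on imbibition (0.61 in mpk8, 0.51 in seeds labelled tcp14, 0.41 in wild type), in imbibed seeds labelled tcp14 for MPK2 (-0.14), MPK6 (-0.19) and MPK7 (-0.07), in imbibed mpk8 for MPK4 (-0.30), in dry mpk8 for MPK3 (0.00), MPK6 (-0.06) and MPK7 (-0.02), and for the tcp14 interaction of MPK6 (-0.16). MPK4 in imbibed mpk8 was also at -0.01 with groups alone, DESeq2 size factors and DESeq2, and MPK6 in dry mpk8 at -0.03 with groups alone. With library totals 2 members were called in imbibed mpk8, 2 in imbibed seeds labelled tcp14 and 2 for the mpk8 interaction. Of all genes, 12.3% were then called higher and 49.9% lower, 7.83% and 54.2%, and 9.08% and 25.3%, in the same order. In imbibed seeds labelled tcp14 2 were called with groups alone and 2 with DESeq2, against 4 under the main settings, where 55.2% of all genes were called. On imbibition of seeds labelled tcp14 8 were called with all genes, MPK4, MPK7 and MPK11 being added. Under the main settings 83.1% of all genes were called there, and MPK11 had no pair in the imbibed libraries. These counts are no result about the family.

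With a 2-fold minimum 4 members were called on imbibition of wild type, and 0 in dry and imbibed seeds labelled tcp14, in imbibed mpk8 and for both interactions. All genes called with it were 8913, 8700 and 10153 on imbibition of mpk8, seeds labelled tcp14 and wild type, 54 and 377 in dry and 2871 and 2146 in imbibed mpk8 and tcp14-labelled seeds, and 1518 and 1141 for the mpk8 and tcp14 interactions. In dry mpk8 473 genes were called, against 838 with all genes and 1045 with groups alone.

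Leaving out a library gave 117 to 232 calls over all genes in dry mpk8 and 1347 to 1604 in dry seeds labelled tcp14, where members called were 0 to 1. Members called were 2 to 5 in imbibed seeds labelled tcp14, beside 8834 to 9837 calls over all genes. It turned small, uncalled values: MPK1 (-0.11 to 0.21) and MPK4 (-0.10 to 0.01) in dry seeds labelled tcp14, MPK2 (-0.27 to 0.01), MPK4 (-0.01 to 0.14) and MPK6 (-0.05 to 0.05) in dry mpk8, MPK12 in imbibed mpk8 (-0.24 to 0.12), and MPK4 in the mpk8 (-0.11 to 0.05) and tcp14 (-0.11 to 0.04) interactions. With a replicate block 61 of 63 values were the same. MPK6 in the tcp14 interaction (0.20, adjusted p = 0.0505) was no longer called and MPK7 on imbibition of seeds labelled tcp14 (-0.21, adjusted p = 0.0456) was called. Same-numbered libraries were most alike for 6 of 6 samples in that contrast and 2 to 5 of 6 in the others, a hint from the data and not the design. Depth limits MPK5, MPK11 and MPK13, and MPK12 in imbibed libraries. The cause of these changes was not tested.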
